A study of Mus musculus with 6 samples.

Results

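Enteroendocrine cells are scattered hormone-secreting cells of the gut epithelium, and 10 genes of their hormones and secretory granules were followed on expression arrays of mouse colon: Chga, Chgb, Pyy, Gcg, Sst, Insl5, Tph1, Cck, Scgn and Neurod1. They were taken as all probe sets that the platform annotation assigns to 1 of these genes alone, which gave 11 probe sets for the 10 genes, of 18194 genes with such a probe set on the array. Neurod1 had 2 probe sets and the others had 1 each, and the probe set with the highest mean over the 6 arrays stands for its gene. Samples came from 3 deficient mice, of genotype PPAR gamma fl/fl with Lysozyme M Cre, and from 3 control littermates of genotype PPAR gamma fl/fl without Cre, all C57BL/6 and 6 to 8 weeks old. All 6 had received 2.5% dextran sodium sulfate (DSS), which damages the colonic epithelium and causes colitis, and were killed on day 7, so no array shows the bowel without DSS. Cre under the Lysozyme M promoter is active mainly in macrophages and neutrophils, so enteroendocrine cells themselves were not the cells targeted. The comparison asked how the inflamed colon differed when PPAR gamma, a lipid-sensing nuclear receptor, was lost from those myeloid cells, and Cre itself cannot be told apart from that loss because no control carried it.

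Enteroendocrine cells arise from the same crypt stem cells as absorptive and goblet cells and make up a small minority of the epithelium. Nutrients, bile acids and bacterial products act on receptors of these cells, which answer by emptying granules that hold peptide hormones or serotonin. The mix of hormones changes along the bowel: cells with GIP and ghrelin are known from the upper gut, neurotensin from the ileum, and PYY, proglucagon peptides and INSL5 from the ileum and colon, with INSL5 highest in the distal large bowel. Several of these genes, among them Sst, Cck, Tac1, Penk and the granins, are also transcribed in enteric neurons. In a sample of whole colon a smaller number of such cells and less RNA per cell cannot be told apart.

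The arrays did not all have the profile of colon. All 6 samples are labelled colon, yet deficient replicate 3 and control replicate 1 carried genes of the small intestine, with Fabp6, the ileal bile acid binding protein, at 14.49 and 15.32 on the log2 scale, against 5.72 to 7.81 on the other 4 arrays. Car1, a carbonic anhydrase of colonocytes, stood at 7.02 and 2.83 on those 2 arrays and at 13.60 to 15.32 on the others. These 2 arrays are called the arrays with a small intestine profile below, and the genotype differences of the 10 genes are given with and without them. Genes of gut position also differed among the other 4, the posterior Hox genes without a shared direction. Hoxb13, a gene of the most posterior gut, was at 3.76 and 7.30 in deficient replicates 1 and 2, against 2.26 and 2.25 in control replicates 2 and 3. Hoxd10, another posterior gene, ran the other way, at 3.91 and 2.29 in those deficient samples, against 6.59 and 6.51 in those control samples. Of 12 posterior Hox genes, 5 were above log2 4 on at least 3 of 6 arrays. On the 4 arrays, 2 of these 5 were lower in deficient samples and the rest higher. Over all 6 arrays the enterocyte markers with the smallest p-values, Alpi, Slc10a2 and Fabp2, differed by -2.72, -1.78 and -1.01 (limma adjusted p from 0.714 to 0.831). The colonocyte markers with the smallest p-values were Car4, at 1.33 (limma unadjusted p = 0.0140, adjusted p = 0.659), Slc26a3, at 0.43, and Aqp8, at 1.88. Pparg read 8.77, 8.23 and 4.15 in deficient samples 1 to 3 and 5.28, 9.91 and 9.54 in control samples 1 to 3, a log2 difference of -1.19 (standard error 1.73, limma adjusted p = 0.880). The Pparg difference was -1.22 without the arrays with a small intestine profile (limma unadjusted p = 0.0116, adjusted p = 0.285) and -1.13 between them. Whether its probes lie in the deleted exons is not known here. Every value is a log2 expression summary with a floor near 2.25, and 3 arrays per group limit the precision.

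None of the 10 genes passed the limma test at a Benjamini-Hochberg adjusted p under 0.05 over the 10491 genes tested, and 0% of all genes did, with 2 of the 10 and 7.46% of all genes under an unadjusted p of 0.05. Both of the 2 were lower in deficient samples, as were 2.36% of all genes at that level. All 10 were above the filter on low values (log2 4 on at least 3 of 6 arrays). Deficient samples had the lower mean for 8 of the 10 genes, where 42.9% of all genes had, with Insl5 and Cck as the exceptions. The median log2 difference, deficient minus control, was -0.73 for the 10 genes and 0.06 for all genes tested. Sst and Scgn were the 2 genes whose groups did not overlap, both lower in deficient samples, where groups did not overlap for 13.5% of all genes and for 4.15% in that direction. On the 4 arrays without a small intestine profile the median was -1.15 for the 10 genes and 0.08 for all genes, and between the 2 arrays with it -0.08 and 0.00341.

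**Figure D1:**
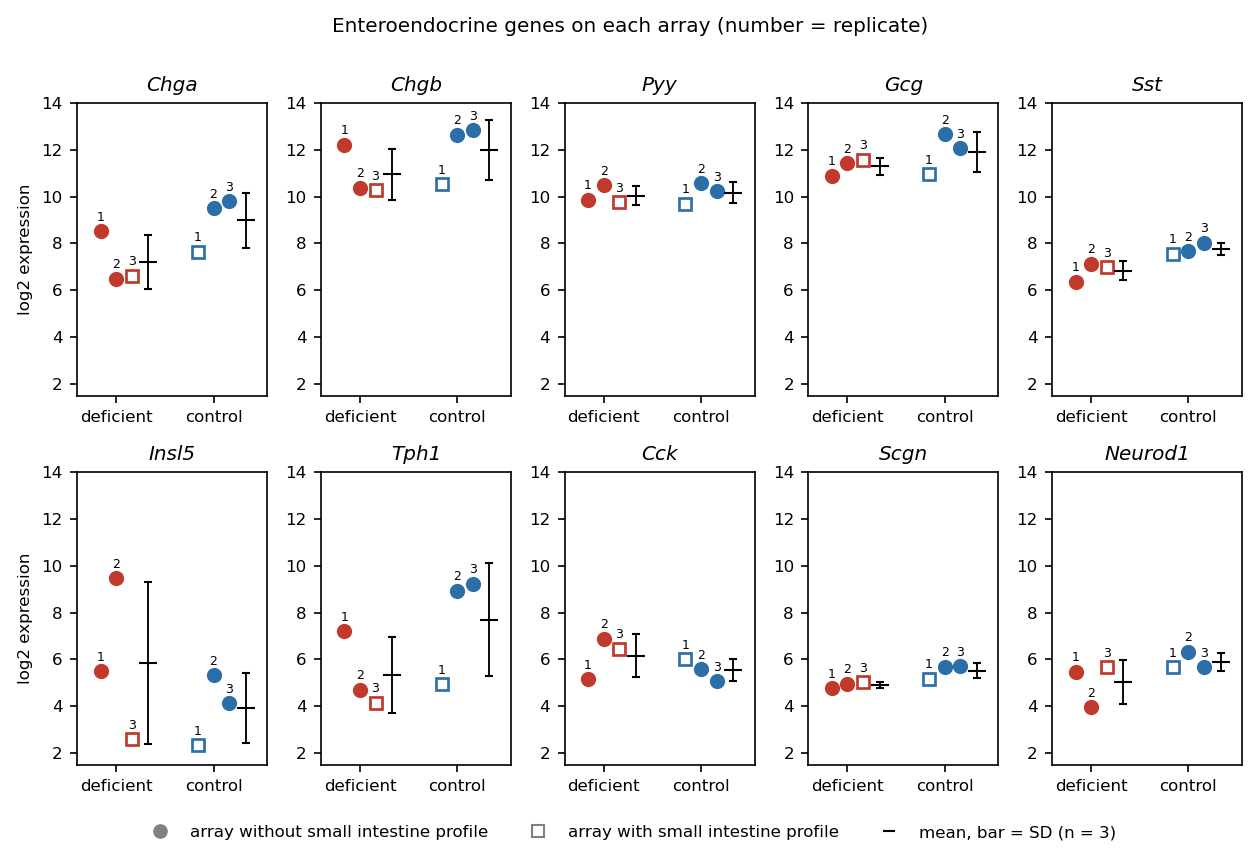
Log2 expression (y axis) of the 10 enteroendocrine genes on the 3 deficient and 3 control arrays; open squares are the 2 arrays with a small intestine profile, numbers are replicates, and black bars are mean and SD. Sst and Scgn separate the genotypes on all 6 arrays. Chga, Chgb and Tph1 are highest in control replicates 2 and 3, and low on both open squares and in deficient replicate 2.

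The most negative differences were those of Tph1, for serotonin synthesis, and of the granin Chga. Chga encodes chromogranin A, an acidic protein that packs hormones into dense-core granules and the usual marker of enteroendocrine cells. Its probe set (1418149_at) read 8.52, 6.49 and 6.62 in deficient samples 1 to 3, against 7.65, 9.50 and 9.81 in control samples 1 to 3. Deficient replicate 1 lay above control replicate 1, so the groups overlapped. The means were 7.21 ± 1.13 in deficient and 8.99 ± 1.17 in control samples (SD, n = 3 each), and the log2 difference was -1.78 with a standard error of 0.79 (limma adjusted p = 0.685).

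Chgb, for the related granin chromogranin B (1415885_at), was highest on the same 3 arrays as Chga. It read 12.21, 10.38 and 10.27 in deficient samples and 10.53, 12.65 and 12.84 in control samples. Deficient replicate 1 was close to the 2 high control arrays, and the other deficient arrays lay beside control replicate 1. The difference of -1.05 (standard error 0.82, limma adjusted p = 0.779) was smaller than the spread within either group.

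Tph1 encodes tryptophan hydroxylase, the rate-limiting enzyme of serotonin synthesis in enterochromaffin cells (1419524_at). It read 7.20, 4.70 and 4.15 in deficient samples, against 4.94, 8.94 and 9.23 in control samples. Control replicates 2 and 3 were the high arrays, deficient replicate 1 was intermediate, and the other 3 were low. Means were 5.35 ± 1.62 in deficient and 7.70 ± 2.40 in control samples (SD, n = 3 each). The log2 difference of -2.35 was the largest in size among the 10 genes, but its standard error was 1.39 (limma adjusted p = 0.728).

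These 3 genes were lower on average on the arrays with a small intestine profile. Those averaged 7.14 against 8.58 on the other 4 for Chga, 10.40 against 12.02 for Chgb and 4.55 against 7.52 for Tph1. Deficient replicate 2, without that profile, was also low, at 6.49, 10.38 and 4.70 in that order. Without the 2 arrays with a small intestine profile the genotype difference was -2.15 for Chga (limma unadjusted p = 0.0386, adjusted p = 0.339). It was -1.45 for Chgb (limma unadjusted p = 0.0890, adjusted p = 0.414) and -3.13 for Tph1 (limma unadjusted p = 0.0216, adjusted p = 0.316). Between the 2 arrays alone it was -1.03, -0.25 and -0.79 in the same order, from 1 mouse of each genotype. In limma fits that left out 1 array at a time the difference of Chga ran from -2.45 to -1.37, that of Chgb from -1.79 to -0.63, and that of Tph1 from -3.73 to -1.59. The most negative value of each came without control replicate 1. Each remained below 0, with adjusted p from 0.334 to 0.985 over the 3 genes.

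**Figure D2:**
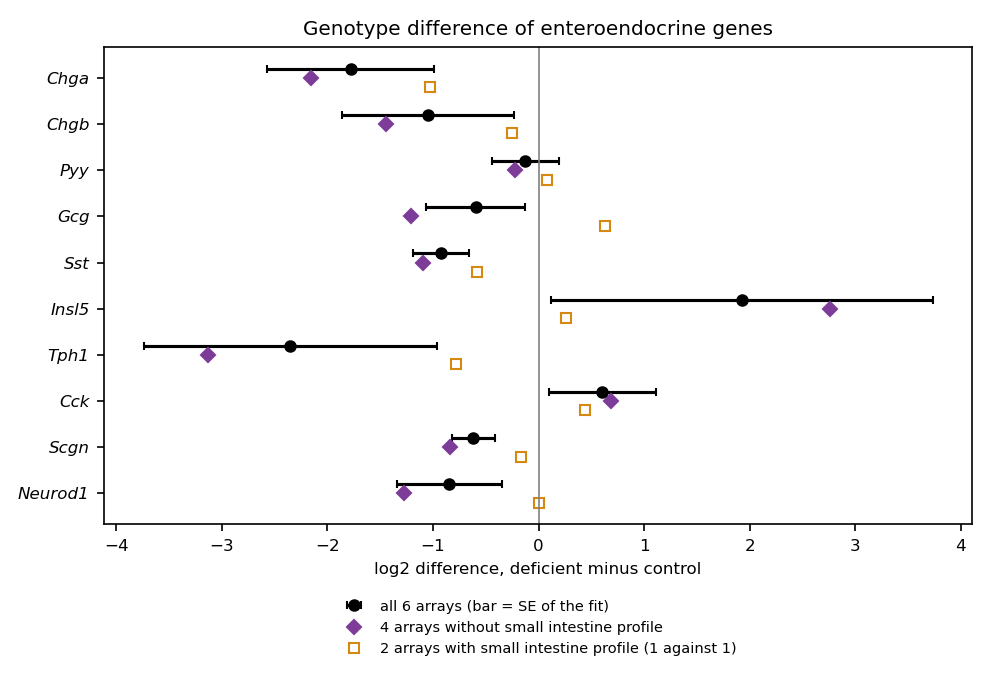
Log2 difference, deficient minus control (x axis), of each enteroendocrine gene from all 6 arrays with the standard error of the limma fit, from the 4 arrays without a small intestine profile, and between the 2 arrays with it. Tph1 and Chga lie at -2.35 and -1.78 over all arrays, Insl5 at 1.93 with the widest bar, and Gcg changes sign to 0.63 between the 2 arrays with a small intestine profile.

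Mast cells also use Tph1. Of 12 mast cell markers, 9 lay under log2 4 on every array, among them Cpa3, the mast cell carboxypeptidase, which ranged from 2.44 to 2.71. Averaged over the list, mast cell markers ran from 3.17 to 3.33 in deficient and from 2.96 to 3.12 in control samples. Hdc, for histamine synthesis, read 2.90, 7.23 and 2.38 in deficient samples, against 2.25, 2.30 and 2.30 in control samples, so that deficient replicate 2 alone was high. Mcpt2, a mucosal mast cell protease, read 3.92, 2.40 and 4.57 in deficient samples and 5.17, 2.42 and 2.82 in control samples, highest on the arrays with a small intestine profile. Neither passed the filter. The single marker that passed the filter, Kit, which gut pacemaker cells share, differed by -0.16 (standard error 0.67).

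Promoter sequences of Chga, Chgb, Tph1, Sst and Cck are shown because the granin genes and Sst are textbook targets of the cAMP-responsive factor CREB, and because each of these 5 windows holds the core of its binding motif. They come from RefSeq (GRCm38.p6) and run 5′ to 3′ from 200 bases before to 50 bases after the annotated start. Capitals mark TGACG, the half-site of the cAMP response element, and CAGNTG, an E-box of the kind that basic helix-loop-helix factors such as NEUROD1 bind, each searched on both strands, so that CGTCA and CACCTG are matches on the other strand. Tph1 has 2 annotated starts, of which the first listed is printed.
Chga (chr12:102554741-102554990, plus strand): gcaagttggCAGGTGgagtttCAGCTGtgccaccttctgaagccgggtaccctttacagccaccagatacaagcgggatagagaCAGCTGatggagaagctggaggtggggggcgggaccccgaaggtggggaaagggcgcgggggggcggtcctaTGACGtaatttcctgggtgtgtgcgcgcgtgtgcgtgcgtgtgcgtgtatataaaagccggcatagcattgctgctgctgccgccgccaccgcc
Chgb (chr2:132781442-132781691, plus strand): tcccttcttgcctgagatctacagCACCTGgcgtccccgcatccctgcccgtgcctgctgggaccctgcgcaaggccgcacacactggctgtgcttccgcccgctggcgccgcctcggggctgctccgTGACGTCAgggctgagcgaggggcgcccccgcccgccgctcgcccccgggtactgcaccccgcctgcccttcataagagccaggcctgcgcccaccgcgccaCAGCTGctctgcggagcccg
Tph1 (chr7:46672488-46672737, minus strand): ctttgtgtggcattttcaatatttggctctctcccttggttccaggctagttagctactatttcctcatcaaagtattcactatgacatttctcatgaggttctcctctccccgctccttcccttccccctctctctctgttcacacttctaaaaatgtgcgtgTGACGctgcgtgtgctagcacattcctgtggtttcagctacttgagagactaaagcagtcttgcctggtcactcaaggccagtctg
Sst (chr16:23890795-23891044, minus strand): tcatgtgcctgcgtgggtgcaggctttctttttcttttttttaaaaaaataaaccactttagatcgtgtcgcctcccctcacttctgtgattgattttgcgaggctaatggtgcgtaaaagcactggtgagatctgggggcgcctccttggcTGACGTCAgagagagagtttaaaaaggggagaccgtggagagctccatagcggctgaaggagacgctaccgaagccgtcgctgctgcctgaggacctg
Cck (chr9:121495645-121495894, minus strand): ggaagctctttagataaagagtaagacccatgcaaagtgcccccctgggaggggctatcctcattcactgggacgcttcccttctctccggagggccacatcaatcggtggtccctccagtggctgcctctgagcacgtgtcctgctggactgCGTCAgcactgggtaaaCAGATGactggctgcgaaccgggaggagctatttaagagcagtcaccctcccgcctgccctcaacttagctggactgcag
The full palindromic element TGACGTCA, which contains TGACG on both strands, lay at -72 in Chgb and at -48 in Sst, counted from the start. It occurred in 1.79% of 32851 promoter windows of 300 bases. Chga held TGACG at -44, Tph1 at -36 and Cck at -47 on the other strand, so that 5 of the 10 genes had the half-site in the first listed window, against 20.8% of all windows. CAGNTG was found in Chga, Chgb, Gcg, Insl5 and Cck, 5 of 10, against 51.4% of all windows. Genes with the half-site did not share a direction: Cck was higher in deficient samples by 0.60 and the other 4 were lower. These matches describe the letters only.

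Among peptide hormones, Sst was the gene with the most even separation. It encodes somatostatin, the inhibitory hormone of D cells, which enteric neurons make as well (1417954_at). It read 6.37, 7.14 and 6.98 in deficient samples, against 7.56, 7.66 and 8.04 in control samples. Every deficient array lay below every control array, arrays with a small intestine profile included. Means were 6.83 ± 0.41 in deficient and 7.75 ± 0.25 in control samples (SD, n = 3 each), with a log2 difference of -0.92, a standard error of 0.26 and a limma unadjusted p of 0.0134 (adjusted p = 0.659). The difference was -1.09 without the 2 arrays with a small intestine profile and -0.58 between them.

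Scgn, for secretagogin, a calcium-binding protein of endocrine cells (1451534_at), was low on all arrays. It read 4.76, 4.95 and 5.01 in deficient samples and 5.18, 5.68 and 5.71 in control samples. The groups were separate by a narrow margin, smallest between deficient replicate 3 and control replicate 1, the 2 arrays with a small intestine profile, where the difference was -0.17. The log2 difference was -0.62 with a standard error of 0.21 (limma unadjusted p = 0.0252, adjusted p = 0.664), and -0.84 without those arrays.

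Gcg and Pyy are the hormone genes of L cells. Gcg encodes proglucagon, which gut cells cut into the glucagon-like peptides (1425952_a_at). It read 10.90, 11.44 and 11.59 in deficient samples and 10.96, 12.67 and 12.07 in control samples. Control replicate 1 lay within the deficient range, while the other control arrays lay above it. The difference was -0.59 with a standard error of 0.47 (limma adjusted p = 0.783), and in fits without 1 array it ran from -1.07 (without control replicate 1) to -0.21 (without control replicate 2). It was -1.21 without the 2 arrays with a small intestine profile (limma unadjusted p = 0.0195, adjusted p = 0.307) and 0.63 between them. The interaction of genotype with tissue profile was -1.83 for Gcg (limma unadjusted p = 0.0298, adjusted p = 0.936), and 0% of all genes passed that test.

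Pyy, for the appetite-restraining peptide YY (1424865_at), was the steadiest of the 10. It read 9.87, 10.49 and 9.77 in deficient samples and 9.69, 10.57 and 10.24 in control samples, a span of 0.88 over all 6 arrays. The genotypes interleaved. The log2 difference was -0.12 with a standard error of 0.31 (limma adjusted p = 0.942). It was -0.23 without the arrays with a small intestine profile and 0.0769 between them. The arrays with a small intestine profile averaged 9.73 against 10.30 on the other 4. Gcg and Pyy did not follow the granins: by Pearson correlation with Chga over the 6 arrays, a description of arrays that differ in bowel profile, Tph1 stood at 0.97 and Chgb at 0.96, Gcg at 0.54 and Pyy at 0.32.

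Insl5 was the member with the widest range, 7.14 log2 units. It encodes an insulin-like peptide of colonic L cells that raises appetite in mice (1449493_at). It read 5.50, 9.48 and 2.59 in deficient samples, against 2.33, 5.31 and 4.14 in control samples. Both arrays with a small intestine profile were near the floor, and deficient replicate 2 stood far above the rest. The difference was 1.93 with a standard error of 1.80 (limma adjusted p = 0.813). Without the arrays with a small intestine profile it was 2.76, between them 0.26, and without deficient replicate 2 alone 0.12. That array also had the highest Hoxb13 (7.30), the highest mean of enteric neuron markers (6.89, against 4.97 to 5.86 on the other 5 arrays), and the lowest Nts and Sct described below, and the part of these in the Insl5 value was not tested.

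Cck encodes cholecystokinin, the hormone of I cells that contracts the gallbladder and is also a neuropeptide (1419473_a_at). It read 5.14, 6.88 and 6.46 in deficient samples and 6.02, 5.59 and 5.07 in control samples. Deficient replicate 2 was highest and control replicate 3 lowest, with overlap between the groups. The difference was 0.60 with a standard error of 0.51 (limma adjusted p = 0.791), and in fits without 1 array it ran from 0.25 (without deficient replicate 2) to 1.11 (without deficient replicate 1). With array weights it was 0.03. It was 0.68 without the arrays with a small intestine profile and 0.44 between them. Its correlation with Chga over the 6 arrays was -0.90.

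Neurod1 encodes the basic helix-loop-helix factor that carries endocrine precursors to maturity. The brighter probe set (1426412_at) read 5.47, 3.97 and 5.66 in deficient samples and 5.66, 6.32 and 5.66 in control samples. Deficient replicate 2 was lowest, deficient replicate 1 lay below every control array, and deficient replicate 3 was level with the lower control values. The difference was -0.85 with a standard error of 0.50 (limma adjusted p = 0.728), and -0.31 without deficient replicate 2. It was -1.27 without the arrays with a small intestine profile and 0.0018 between them. The second probe set (1426413_at) read 4.49, 3.38 and 4.97 in deficient samples and 5.09, 5.27 and 5.59 in control samples. There the groups did not overlap, with a difference of -1.04 (standard error 0.43, limma adjusted p = 0.698 in a fit over single probe sets).

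On the 4 arrays without a small intestine profile, 7 of the 10 genes read lower in both deficient samples than in both control samples, where 18.4% of all genes did: Chga, Chgb, Gcg, Sst, Tph1, Scgn and Neurod1. Of these, Chga, Gcg, Sst, Tph1 and Scgn had a limma unadjusted p under 0.05, 5 of 10, against 4.93% of all genes lower at that level. None of the 10 passed adjustment on these arrays, nor did any gene tested (0%), and the smallest adjusted p of a member was 0.282, for Scgn. Deficient replicate 2 was the lowest of the 4 for Chga, Chgb, Tph1 and Neurod1, 4 of 10, near the 26.7% of all genes for which it was lowest. Of the 10, 5 were lower in deficient samples both on these 4 arrays and between the other 2 (Chga, Chgb, Sst, Tph1 and Scgn), against 23.7% of all genes. These 4 arrays also differed by genotype in genes of gut position (Hoxb13 and Hoxd10 above), whose part was not tested. Among epithelial markers Epcam, the pan-epithelial adhesion molecule, ran from 14.39 to 14.42 in deficient and from 14.33 to 14.68 in control samples. The median log2 difference of 10 epithelium markers was -0.03 over all arrays and 0.07 on these 4. Between the 2 arrays with a small intestine profile that median was -0.21. There 9 of the 10 were lower in the deficient sample, against 5029 of 10491 genes tested. Not every epithelial marker was even: Vil1, for the microvillus protein villin, spanned 2.54 log2 units over the 6 arrays and Krt20, a keratin of mature epithelium, 1.57. Cdx2, the intestinal homeobox factor, differed by -0.60 over all arrays and by -0.86 on these 4 (limma unadjusted p = 0.0374, adjusted p = 0.337). Elf3, another of the epithelium markers, differed by 0.37 over all arrays (standard error 0.31).

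**Figure D3:**
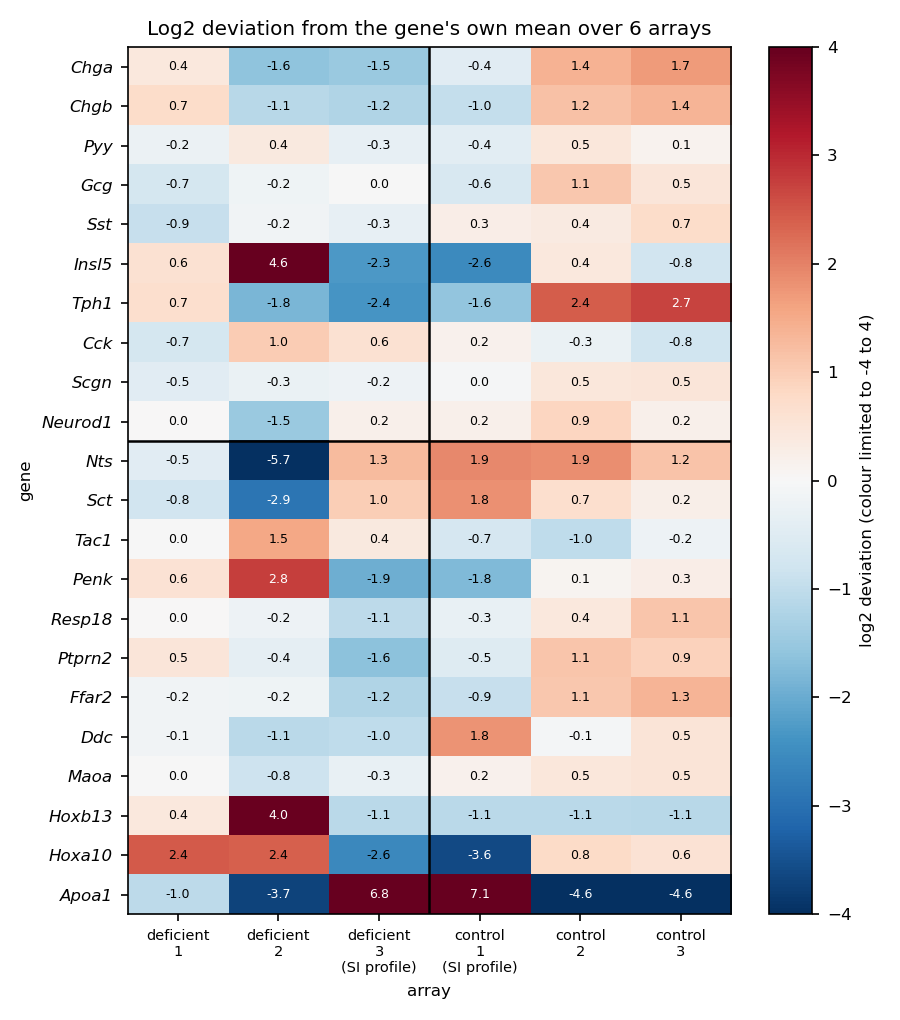
Deviation of each gene from its own mean over the 6 arrays on the log2 scale (colour, limited to -4 to 4, with values printed), with arrays as columns, deficient left of control; the 10 enteroendocrine genes are above the line, and genes named beside them below it. Deficient replicate 2 has the highest Insl5, Penk and Hoxb13 and the lowest Nts and Sct.

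Other gut hormones were read from a list of 8, of which 4 passed the filter: 2 were higher and 2 lower in deficient samples, 0 past adjustment, and the median was -0.43. Nts, for the ileal peptide neurotensin, read 9.26, 3.97 and 10.97 in deficient samples, against 11.64, 11.58 and 10.87 in control samples. Deficient replicate 2 lay far below every other array. The difference was -3.29 with a standard error of 1.76 (limma adjusted p = 0.714). Sct, for secretin, read 7.30, 5.17 and 9.06 in deficient samples and 9.90, 8.74 and 8.32 in control samples. Both arrays with a small intestine profile lay above all others, and deficient replicate 2 was lowest. The difference was -1.81 with a standard error of 1.02 (limma adjusted p = 0.719). Tac1, the precursor of substance P in enterochromaffin cells and neurons, was higher by 1.28 (standard error 0.45, limma unadjusted p = 0.0311, adjusted p = 0.667), with 8.89, 10.44 and 9.28 in deficient and 8.22, 7.87 and 8.68 in control samples. Gip, the hormone of K cells of the upper small intestine, was at 8.16 on control replicate 1 and from 2.35 to 2.43 on the other 5 arrays, so the 2 arrays with a small intestine profile differed in it.

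Prohormone processing and granule genes had 11 of 19 listed members past the filter, 9 lower and 2 higher in deficient samples, 0 past adjustment, with a median of -0.39. All 11 were lower in the deficient sample between the 2 arrays with a small intestine profile, against 5029 of 10491 genes tested, and 6 of 11 on the other 4 arrays, against 4366 of 10491. The smallest p-values belonged to Resp18, a granule protein, at -0.82 (standard error 0.45), Ptprn2, a phosphatase-like granule membrane protein, at -1.01 (standard error 0.67), and Cpe, the carboxypeptidase that trims prohormones, at -0.44 (standard error 0.42), with limma adjusted p from 0.718 to 0.818. Pcsk1, the prohormone convertase, did not pass the filter and was above log2 4 on 2 arrays, at 3.76, 3.80 and 3.39 in deficient and 3.76, 6.24 and 5.04 in control samples. Scg2, Scg3, Snap25 and Aplp1, which neurons also express, had differences between -0.39 and -0.11.

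The serotonin genes other than Tph1 did not share a direction, with 4 of 7 kept members lower and 3 higher, with a median of -0.46 and 0 past adjustment. Gch1, which starts synthesis of the tetrahydrobiopterin that TPH1 and nitric oxide synthase need, was higher by 1.63 (standard error 0.28, limma unadjusted p = 0.00127, adjusted p = 0.659). Maoa, which breaks serotonin down, was at -0.78 (standard error 0.25, unadjusted p = 0.0227), and Ddc, the decarboxylase after TPH1, at -1.50 (standard error 0.54, unadjusted p = 0.0327). Maob, a related oxidase, read 7.35, 5.35 and 7.83 in deficient samples and 9.72, 7.96 and 8.19 in control samples, a difference of -1.78 (standard error 0.79, unadjusted p = 0.0659, adjusted p = 0.685). Groups did not overlap for these 4 of the 7 genes, 3 lower and 1 higher, against 13.5% of all genes in either direction. Ddc is also abundant in small intestinal enterocytes and stood at 10.12 on control replicate 1, and its difference was -0.84 without the arrays with a small intestine profile. The serotonin transporter Slc6a4 did not pass the filter, with 6.44 and 7.66 on the arrays with a small intestine profile and 2.87 to 3.22 on the others.

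Of 17 listed enteroendocrine transcription factors beside Neurod1, 4 passed the filter, all with a negative difference and a median of -0.17, 0 past adjustment, and 7 lay under log2 4 on every array, Neurog3, the factor that starts the lineage, among them. Insm1, a repressor in endocrine precursors, read 4.05, 4.42 and 4.42 in deficient and 4.49, 5.88 and 4.68 in control samples, a difference of -0.72 (standard error 0.40, limma adjusted p = 0.718), with groups that did not overlap by a narrow margin. Rfx3 differed by -0.15 and Foxa2 by -0.19. The median of the 4 was 0.08 without deficient replicate 3 and 0.09 without control replicate 3. Of 15 nutrient and bile acid sensors, 4 passed the filter, 3 lower and 1 higher, with a median of -0.40 and 0 past adjustment. Ffar2, the short-chain fatty acid receptor of L cells and leukocytes, read 7.43, 7.41 and 6.39 in deficient and 6.66, 8.66 and 8.93 in control samples, with a difference of -1.01 (standard error 0.67, limma adjusted p = 0.747). Kcnj11, a potassium channel subunit of endocrine cells, differed by 0.11 and Slc5a1, the sodium-glucose transporter, by -0.63. Of 22 genes for hormone receptors and the hormone-cleaving peptidase Dpp4, 3 passed the filter and 14 were under log2 4 throughout, including Glp1r and Sstr1. Htr2b and Htr4, serotonin receptors, differed by -0.45 and 0.07, and Dpp4 by -0.36, none with a limma adjusted p under 0.899.

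**Figure D4:**
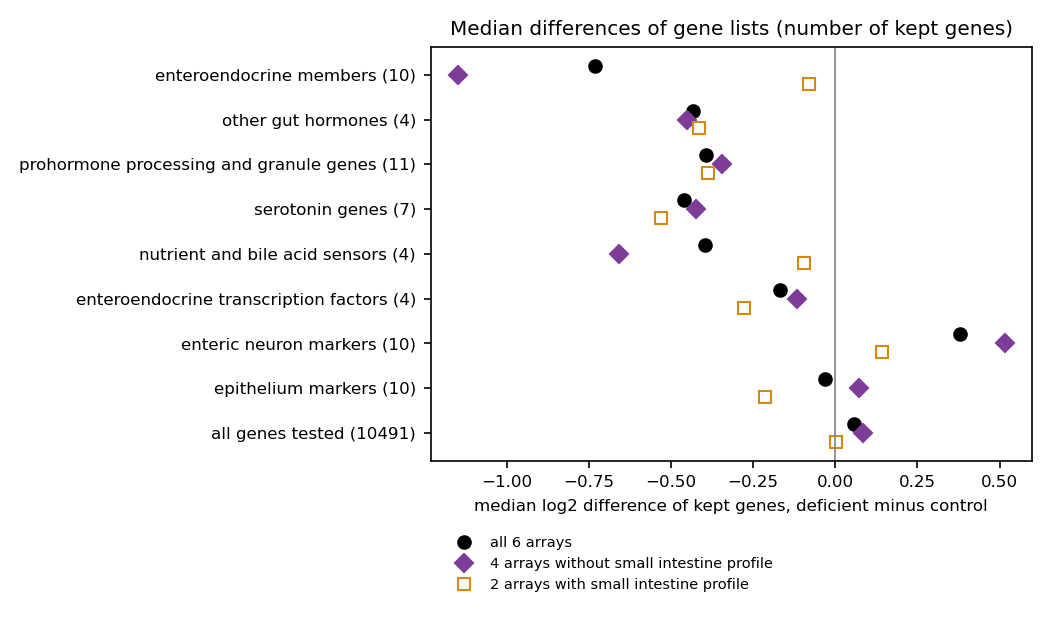
Median log2 difference, deficient minus control (x axis), of the genes past the filter in each list (number in brackets), over all 6 arrays, over the 4 without a small intestine profile and between the 2 with it. The 10 enteroendocrine genes lie at -0.73, -1.15 and -0.08, and all genes tested near 0.

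Enteric neuron markers, which share several of these products, had a median above 0 that rested on deficient replicate 2. Of 10 kept markers (14 listed) 8 were higher in deficient samples, with a median of 0.38. Without deficient replicate 2 the median was -0.05 and 4 of the 10 were higher. The list mean was 5.71, 6.89 and 4.99 in deficient samples 1 to 3, against 4.97, 5.85 and 5.86 in control samples 1 to 3. Nos1, Nefl and Tubb3, which had the smallest p-values, were higher by 0.39, 0.89 and 0.69 with limma adjusted p from 0.760 to 0.808. Pancreas markers, searched because islets make the same hormones, were under log2 4 on every array for 7 of 9 genes with a probe set, Ins2 (insulin) among them, and their list mean ran from 2.86 to 3.35 in deficient and from 2.89 to 3.36 in control samples. Cela1, the pancreas marker that passed the filter, differed by 0.46.

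The 5 genes most like Chga by Pearson correlation over the 6 arrays, among the other 10490 tested, were Nipsnap1, Cab39l, Adk, Enpp5 and Ppp1r9a, with values from 0.989 to 0.993. Tph1 ranked 25 and Chgb 53 in that order, Scgn 898 and Neurod1 1346. With 6 arrays that differ in bowel profile these ranks describe shared order and no more. Nipsnap1, the first of them, read 8.33, 7.42 and 7.60 in deficient and 7.90, 8.91 and 8.92 in control samples, with deficient replicate 2 lowest and control replicates 2 and 3 highest as for Chga.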

How the data were processed

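Total RNA of whole colon from 6 mice, 1 array per mouse, was measured on Affymetrix mouse arrays, per the labels' protocols. The deposited values are log2 expression summaries made with GCRMA, per the submitters' processing notes; no version or settings are stated there. That the scale is log2 was inferred from the values, which ran from 2.25 to 16.2. Of 45101 probe sets, 34958 named 1 gene in the platform annotation, 932 several and 9211 none listed. Those above log2 4 on at least 3 of 6 arrays were kept, and the brightest stood for its gene (10491 genes). The genotype contrast was fitted with limma 3.58.1 (R 4.3.3; lmFit, then eBayes), two-sided and without covariates, and p-values were adjusted by Benjamini-Hochberg over all genes. Labels call the replicates biological.

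Arrays were said to have a small intestine profile when 9 enterocyte markers lay further above their own means than 7 colonocyte markers; this was chosen after seeing the data, because a comparison of marker levels, planned first, also set control replicates 2 and 3 apart. Members, the gene lists and the tests were chosen with earlier results of these data known. Named genes were the members, the 3 smallest p-values of each list and the 5 genes most like Chga; other genes, such as the Hox genes, Gip, Pcsk1, Slc6a4, Epcam and Neurog3, were named after their values were seen. The fit was tested on simulated data in which 200 of 10491 genes were changed. It recovered 0% of them at a log2 change of 1, 62% at 2 and 89% at 4, with 0, 10 and 4 false calls. Alternatives covered filters, normalization, probe sets, variance model, array weights, a floor, a replicate block, tissue profile and leaving out arrays. Same-numbered samples had correlations of deviations of -0.54, 0.36 and -0.61, and no label states pairing.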

Additional observations from a re-analysis of the deposited data

How the results depend on the processing

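No member passed an adjusted p under 0.05 in any alternative fit run with limma, and none at 0.1 in the fit without covariates. With array weights the smallest member adjusted p was 0.0806. Over all genes, 1 gene passed when probe sets with cross-hybridisation suffixes were left out, 1 when every probe set was tested on its own, and 2 with array weights, against 0. The member median was below 0 in all 21 alternatives, from -0.99 to -0.58 in fits without 1 array, -1.15 without the arrays with a small intestine profile and -0.08 between them. Not every alternative could move it. Dropping the filter, changing the variance model or adding a balanced block (replicate or tissue profile) leaves the member differences as they were. With the replicate block, 0 members and 0 genes passed. Each such block holds 1 array of each genotype, so the median of -0.73 could not change. The labels give no pairing. With a block for tissue profile, 4 members had an unadjusted p under 0.05 and the smallest member adjusted p was 0.315. Insl5 turned to -1.34 when markers were compared by level. As a block and between the arrays so set apart this is the same contrast, of deficient replicate 3 alone against the 3 control arrays. The fit without the arrays set apart by level was not run, since no control array was left. Pyy ran from -0.364 to 0.0774 in fits without 1 array, above 0 without deficient replicate 3 (0.0135) or control replicate 2. Between the arrays with a small intestine profile Pyy turned to 0.0769, Gcg to 0.63 and Neurod1 to 0.0018. The cause was not tested. In fits without 1 array, added for the lists after seeing the data, the median ran from -0.74 to -0.08 for granule genes, -0.61 to -0.28 for serotonin genes, -0.67 to -0.42 for other gut hormones and -0.49 to -0.11 for sensors. With 3 arrays per group the standard errors of the members ran from 0.21 to 1.80, and low members such as Scgn lie nearer the array floor.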
